A study of Homo sapiens with 20 samples.

Results

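The proteasome subunit genes of HL60 cells were described across 4 groups of RNAseq libraries. HL60 is a human acute myeloid leukemia cell line that differentiates toward neutrophils when it is given all-trans retinoic acid (ATRA). Every gene symbol in the RNAseq files that begins with PSMA, PSMB, PSMC, PSMD, PSME, PSMF or PSMG followed by a digit was taken, without hyphenated symbols and pseudogenes, if its scaled read count averaged 50 or more over the 12 libraries. This gave 46 genes of the 28051 named in the files. Of the 54 symbols with these letters, 5 were hyphenated, 0 were pseudogenes and 3 were below the minimum. *PSMA8* and *PSMB11* were listed at 0 in every library, and *PSMD5* had a mean scaled count of 9.08. The lowest gene kept was *PSMC3IP* with a mean of 636.5, so no gene lay close to the minimum. *PSMC3IP* shares the letters but encodes a meiotic recombination factor and not a proteasome subunit, which leaves 45 proteasome genes.

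The Cas9 control and *HK3*-null cells both carried the lentiviral CRISPR vector with Cas9, and either genotype received 1 µM ATRA, or 0.01% DMSO as the solvent alone, for 36 h. RNAseq had 3 replicates in each of the 4 groups, and ATACseq, which measures open chromatin, had 2. *HK3* encodes a hexokinase. All knockout libraries carry 1 knockout label, and the methods describe lines grown from single cells, so a difference between genotypes can also be one between clones.

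The scaled counts summed to between 29056349 and 31549781 per library, and the depth estimated from the steps between values was 22.7 to 37.0 in units of 1e6 reads. *HK3* mRNA was not lower in the knockout: its scaled counts were 65 to 105 in Cas9 control DMSO and 302 to 346 in *HK3*-null DMSO, and 1298 to 1850 against 1285 to 1975 under ATRA. The mRNA level therefore does not check the label, and *HK3*-null below means the libraries labelled so. The 5 ATRA response markers rose in both genotypes, with summed scaled counts of 236 to 303 in Cas9 control DMSO, 13149 to 14537 in Cas9 control ATRA, 8103 to 9415 in *HK3*-null DMSO and 83782 to 92519 in *HK3*-null ATRA. Between genotypes, 4 of the 5 were higher in *HK3*-null in DMSO, all but *TGM2*, and 5 in ATRA. Most of the sum in *HK3*-null DMSO was *CYBB*, with 7412 to 8696. Markers of other cell types were low, with sums of 1 to 12 for T cells, 46 to 194 for B cells, 20 to 58 for erythroid cells and 11 to 60 for epithelial cells, but some moved with the groups. Of the B cell markers *MS4A1* was at 0 in all libraries, *CD79A* rose under ATRA in both genotypes, and *PAX5* had 0 to 2 scaled counts in Cas9 control and 70 to 119 in *HK3*-null. Of the epithelial markers *KRT18* was higher in *HK3*-null in ATRA, with 20 to 28 against 1 to 15. *CD3E* of the T cell markers had 1 to 4 in Cas9 control and 5 to 12 in *HK3*-null, and *KLF1* of the erythroid markers fell under ATRA. The part of these markers in the differences below was not tested. Tested genes on chromosomes 6 and 8 were higher, and those on chromosomes 5, 13 and 15 lower, in *HK3*-null as whole chromosomes. The median log2 difference in DMSO was 0.52 for chromosome 6 and −0.94 for chromosome 15. *PSMB1*, *PSMB8*, *PSMB9* and *PSMG4* lie on chromosome 6, *PSMA4* lies on chromosome 15, and the other 41 genes lie on none of these 5 chromosomes.

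The proteasome is the barrel-shaped protease that degrades ubiquitin-tagged proteins. Its 20S core consists of outer alpha rings and inner beta rings, and *PSMB5*, *PSMB6* and *PSMB7* encode the beta subunits that cut peptides. In cells of the immune system, or after interferon, *PSMB8*, *PSMB9* and *PSMB10* products take their places in newly built particles, called immunoproteasomes, which favor peptides suited to major histocompatibility complex class I. The 19S cap recognizes and unfolds the substrate, whereas PA28, encoded by *PSME1* and *PSME2*, is an alternative activator that opens the core without ubiquitin.

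Transcripts of these genes were abundant and their levels unequal. Together they took 0.754 to 0.773% of the scaled counts of a library in Cas9 control DMSO and 0.694 to 0.723% in Cas9 control ATRA. The share was 0.649 to 0.662% in *HK3*-null DMSO and 0.563 to 0.606% in *HK3*-null ATRA, so the 4 groups did not overlap. These are shares of the RNA sequenced, and in bulk samples fewer cells of a type and less RNA per cell cannot be told apart. Per kilobase of the canonical transcript, the median level over the 46 genes was 2569 scaled counts. It ranged from 332.1 for *PSMC1*, a 19S ATPase, to 10350 for *PSMB1*, a structural beta subunit. By this measure *PSMB9* was the lowest of the 17 core subunit genes at 658.8, and *PSMB8* and *PSMB10* had 3315 and 4485. *PSMB1* also had the highest level without the length correction, a mean scaled count of 9222. Replicates were close, with a median coefficient of variation of 3.63% in Cas9 control DMSO, 5.16% in Cas9 control ATRA, 2.7% in *HK3*-null DMSO and 7.27% in *HK3*-null ATRA. Replicate 3 had the lowest value of its group for 29, 38, 34 and 40 of the 46 genes in that order. Its summed scaled counts over all genes were also the lowest of its group in each of the 4 groups. The share of all genes lowest in replicate 3 was not computed.

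The start regions of the immunoproteasome and PA28 genes are shown because these genes rose under ATRA in both genotypes. Motifs were searched on both strands of the 250 bases before each start in RefSeq (GRCh38.p14), where 40 of the 46 genes matched with 50 starts. The core of the interferon response element, TTCNNTTTC, was found before 6.88% of all 35116 starts and before 5 of the 50, those of *PSMA4*, *PSMB4*, *PSMB10*, *PSME2* and *PSMG4*. In *PSMB10* it reads GAAAGCGAA on the gene's strand, 21 to 13 bases before the start, and the same 9 letters stand 28 to 20 bases before that of *PSME2*. TGACNNNGC, the core of the antioxidant response element, was before 10.9% of all starts and before 12 of the 50, including those of *PSMB9*, *PSME1* and *PSME2*. TTCNNNGAA, the letters of the GAS element, was before 6.57% of all starts and before 6 of the 50. In *PSMB8* it stands 65 to 57 bases before a start. CCAAT was before 32.0% of all starts and before 20 of the 50, including 1 of *PSMB9*. A match is a description of these letters and not a site that was shown to be bound. Printed here are the bases before the starts of *PSMB10* (chr16:67936851-67937100, minus strand), *PSMB9* (chr6:32853942-32854191, plus strand) and *PSME1* (chr14:24135944-24136162, plus strand, ending where an annotated transcript begins), with the matches to TTCNNTTTC and TGACNNNGC in capitals:
PSMB10: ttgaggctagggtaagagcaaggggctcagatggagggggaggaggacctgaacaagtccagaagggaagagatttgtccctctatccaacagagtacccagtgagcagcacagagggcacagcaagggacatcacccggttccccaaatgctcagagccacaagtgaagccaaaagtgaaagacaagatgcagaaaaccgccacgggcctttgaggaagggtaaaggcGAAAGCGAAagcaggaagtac
PSMB9: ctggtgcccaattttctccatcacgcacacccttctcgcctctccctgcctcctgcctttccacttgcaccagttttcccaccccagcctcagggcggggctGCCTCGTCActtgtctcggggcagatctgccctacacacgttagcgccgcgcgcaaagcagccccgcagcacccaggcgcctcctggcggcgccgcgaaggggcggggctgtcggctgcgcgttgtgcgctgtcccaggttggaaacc
PSME1: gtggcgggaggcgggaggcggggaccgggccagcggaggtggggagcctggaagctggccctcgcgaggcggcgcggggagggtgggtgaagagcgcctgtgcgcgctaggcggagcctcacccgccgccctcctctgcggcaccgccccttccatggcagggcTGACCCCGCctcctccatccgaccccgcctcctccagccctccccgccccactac

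The first question was how the proteasome genes responded to ATRA in each genotype. In both, the 3 immunoproteasome subunits and both PA28 genes rose, while most genes of the constitutive core, the 19S cap and the assembly chaperones were lower or did not pass the test. The test was limma over 13256 genes, and a gene was called where its p, adjusted by Benjamini-Hochberg, was below 0.05. In Cas9 control, ATRA raised 6 of the 46 genes and lowered 30, where 20.3% of all tested genes were higher and 21.3% lower. In *HK3*-null, 8 rose and 17 fell, against 24.0% higher and 25.1% lower of all genes. Without the 3 immunoproteasome genes, 3 of 43 rose and 30 fell in Cas9 control (median −0.28 on the log2 scale), and 5 rose and 17 fell in *HK3*-null (median −0.16). The median of all tested genes was 0.0 and 0.014. Both genotypes have their own DMSO and ATRA libraries, and 6 genes rose and 15 fell in both, where 15.3% and 16.5% of all tested genes did. With the replicate number as a block, the falls in *HK3*-null numbered 30 and the rises stayed at 8, where 30.7% of all genes fell and 30.6% rose. After quantile normalization 26 of the 46 genes fell in Cas9 control and 25 in *HK3*-null, so these counts were nearly equal. Of all 13256 genes 5463 and 6682 were then called, 45.9% and 44.4% of these higher. Most falls were small. With a fold of at least 1.5 also required, 6 genes were called in Cas9 control, 1 of them lower, and 7 in *HK3*-null, 2 of them lower, where 2522 of the 13256 genes and 26.6% of them passed.

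*PSMB9*, on chromosome 6 at 32844136 to 32859851 (GRCh38, GENCODE), encodes the immunoproteasome subunit that takes the place of *PSMB6* and showed the largest response. Its scaled counts were 507, 484 and 542 in Cas9 control DMSO and 1716, 1675 and 1703 in Cas9 control ATRA. In *HK3*-null they were 48, 48 and 55 in DMSO and 446, 388 and 428 in ATRA. All ATRA libraries exceeded all DMSO libraries of their genotype, but the *HK3*-null ATRA libraries did not reach the Cas9 control DMSO libraries. The log2 fold change was 1.73 ± 0.09 (SE) in Cas9 control (adjusted p = 5.39e-08), 3.33-fold, and 3.06 ± 0.09 in *HK3*-null (adjusted p = 5e-10), 8.36-fold.

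*PSMB8*, the immunoproteasome counterpart of *PSMB5*, had 3590, 3603 and 3594 in Cas9 control DMSO and 5795, 5707 and 5582 in Cas9 control ATRA. In *HK3*-null it had 2077, 2121 and 1960 in DMSO and 3697, 3631 and 3356 in ATRA. It rose by a log2 fold change of 0.66 ± 0.05 in Cas9 control (adjusted p = 1.25e-06) and 0.79 ± 0.05 in *HK3*-null (adjusted p = 1.72e-07). *PSMB10*, the counterpart of *PSMB7*, had 3604, 3377 and 3503 in Cas9 control DMSO and 6577, 6486 and 6215 in Cas9 control ATRA. Its counts in *HK3*-null were 2725, 2862 and 2604 in DMSO and 5241, 5224 and 4172 in ATRA. It rose by 0.88 ± 0.08 (adjusted p = 7.44e-06) and 0.83 ± 0.08 (adjusted p = 6.63e-06). Neither gene's ATRA and DMSO libraries overlapped in either genotype. The annotated extent of *PSMB9* contains *TAP1*, on the opposite strand, and overlaps *PSMB8-AS1* nearly whole and one end of *PSMB8*. The antisense gene *PSMB8-AS1* starts 39 bases from *PSMB8* and overlaps it. It rose by 1.38 in both genotypes. The methods describe directional sequencing, but no source used here gives whether the counting used the strand. Whether reads of these overlaps were assigned by strand therefore cannot be told.

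The PA28 genes rose alongside. *PSME1* had 4002, 3975 and 3858 in Cas9 control DMSO and 8493, 8415 and 8367 in Cas9 control ATRA, and 3016, 3133 and 2971 against 5413, 5474 and 5182 in *HK3*-null. Its log2 fold change was 1.09 ± 0.04 (adjusted p = 3.86e-09) and 0.82 ± 0.04 (adjusted p = 3.14e-08). *PSME2* had 3100, 3150 and 3021 in Cas9 control DMSO and 7999, 8050 and 8188 in Cas9 control ATRA, and 2305, 2385 and 2501 against 4135, 4399 and 4107 in *HK3*-null. It rose by 1.39 ± 0.05 (adjusted p = 1.38e-09) and 0.81 ± 0.05 (adjusted p = 8.7e-08). The other activators went the other way: *PSME3*, which encodes the nuclear PA28 gamma, fell by 0.48 in Cas9 control and by 0.43 in *HK3*-null on the log2 scale, and *PSME4*, which encodes PA200, fell by 0.26 and by 0.19. *PSMF1*, the inhibitor PI31, fell by 0.25 and by 0.33. *PSMC3IP* was the sixth gene that rose in Cas9 control, with a log2 fold change of 0.32 there and 0.46 in *HK3*-null, and the call in Cas9 control was lost without any 1 of 3 libraries, DMSO replicate 1 or 3 or ATRA replicate 2, at adjusted p up to 0.084.

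**Figure D1:**
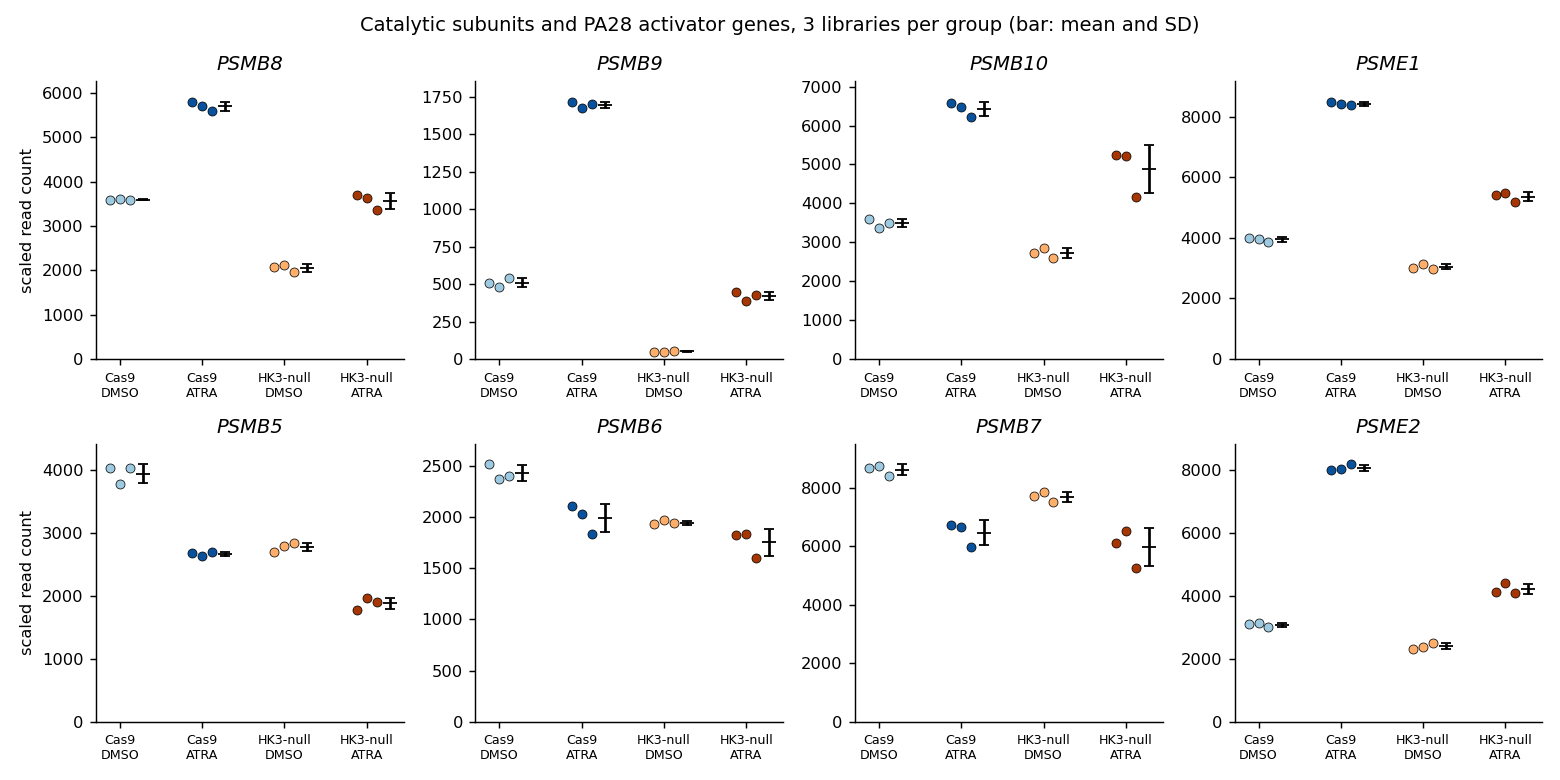
Scaled read counts (y axis, from 0) of the immunoproteasome catalytic subunits, their constitutive counterparts and the PA28 genes in each of the 4 groups (x axis). Points are libraries and the black bar is the mean with the SD of 3 libraries. *PSMB9* falls to 48 to 55 in *HK3*-null DMSO, while *PSMB5* is lower under ATRA in both genotypes.

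The constitutive catalytic subunits went down as their counterparts went up. *PSMB5*, which encodes the chymotrypsin-like subunit, had 4025, 3770 and 4020 in Cas9 control DMSO and 2676, 2629 and 2693 in Cas9 control ATRA, and 2696, 2788 and 2832 against 1772, 1956 and 1900 in *HK3*-null. It fell by 0.56 ± 0.05 on the log2 scale in both (adjusted p = 5.92e-06 and 3.29e-06). *PSMB7*, the trypsin-like subunit, had 8686, 8749 and 8396 against 6739, 6662 and 5968 in Cas9 control, and 7708, 7858 and 7518 against 6117, 6515 and 5259 in *HK3*-null. It fell by 0.42 ± 0.07 (adjusted p = 0.000941) and by 0.37 ± 0.07 (adjusted p = 0.00146). *PSMB6*, the caspase-like subunit, had 2517, 2374 and 2398 against 2108, 2034 and 1835 in Cas9 control and fell by 0.29 ± 0.07 (adjusted p = 0.0049). In *HK3*-null it had 1932, 1968 and 1941 against 1825, 1832 and 1605, a log2 difference of −0.15 that did not pass (adjusted p = 0.0786), and that did with the replicate block (adjusted p = 0.0196) and after quantile normalization (adjusted p = 0.0463).

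Set against its counterpart, each immunoproteasome subunit gained under ATRA in both genotypes. The ratio of *PSMB8* to *PSMB5* was 0.892, 0.956 and 0.894 in Cas9 control DMSO and 2.17, 2.17 and 2.07 in Cas9 control ATRA. In *HK3*-null it was 0.77, 0.761 and 0.692, and 2.09, 1.86 and 1.77. The ratio of *PSMB9* to *PSMB6* went from 0.201, 0.204 and 0.226 to 0.814, 0.824 and 0.928 in Cas9 control. In *HK3*-null it went from 0.0248, 0.0244 and 0.0283 to 0.244, 0.212 and 0.267. The ratio of *PSMB10* to *PSMB7* had a geometric mean of 0.406 in Cas9 control DMSO, 0.996 in Cas9 control ATRA, 0.355 in *HK3*-null DMSO and 0.817 in *HK3*-null ATRA. Of the 12 differences tested, 3 ratios in 4 comparisons, 11 had groups that did not overlap and reached p = 0.1, the smallest that an exact two-sided permutation test of 3 against 3 allows (adjusted p = 0.109). The exception was *PSMB8* to *PSMB5* between genotypes under ATRA, with a log2 difference of −0.17 (exact permutation p = 0.2). How often ratios of other gene pairs had groups that did not overlap was not computed. Of single genes, 5508 to 7840 of the 13256 tested were called by limma in these 4 comparisons. Of the counts of all 6 catalytic genes, the immunoproteasome genes made up 33.4 to 34.0% in Cas9 control DMSO, 55.0 to 56.3% in Cas9 control ATRA, 27.3 to 28.5% in *HK3*-null DMSO and 47.3 to 49.1% in *HK3*-null ATRA.

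**Figure D2:**
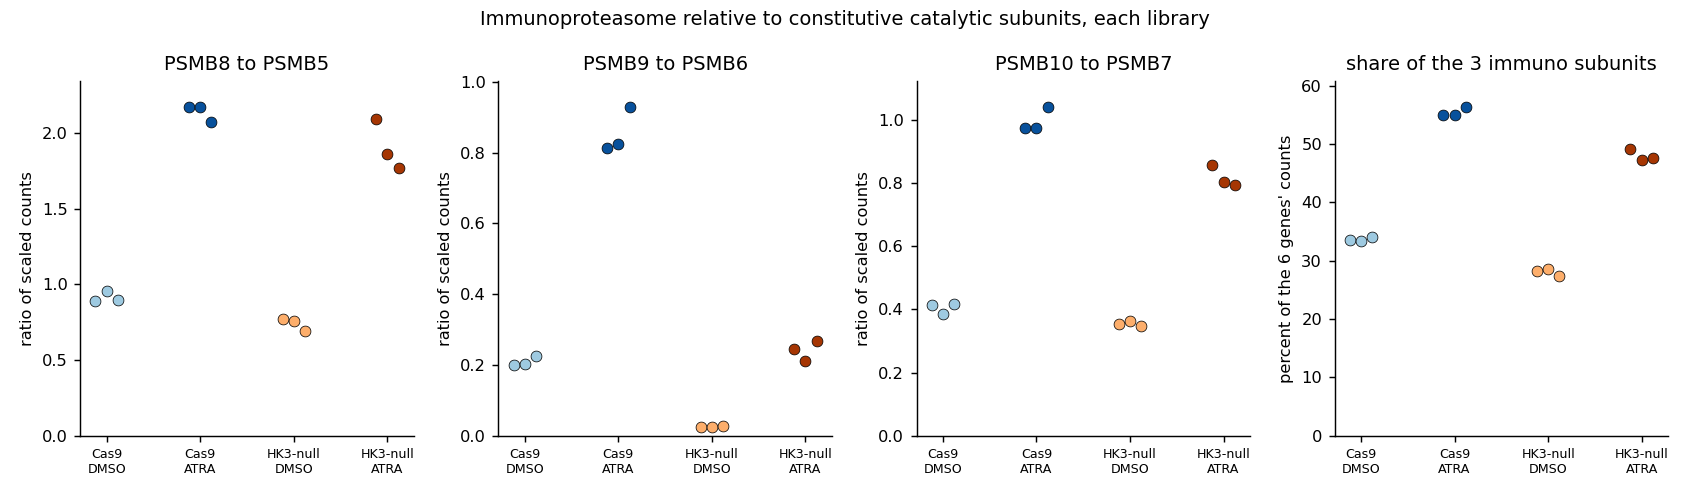
Ratio of scaled counts of each immunoproteasome subunit to its constitutive counterpart, and share of the 3 immunoproteasome subunits in the counts of all 6 catalytic genes in percent (y axes, from 0), in the libraries of the 4 groups (points). The share is 55.0 to 56.3% in Cas9 control ATRA and 27.3 to 28.5% in *HK3*-null DMSO.

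In the noncatalytic core no gene rose, where 20.3% of all tested genes rose in Cas9 control and 24.0% in *HK3*-null. Of the 7 alpha ring genes 2 fell in each genotype, where 21.3% of all tested genes fell in Cas9 control and 25.1% in *HK3*-null. Of the alpha ring genes, *PSMA6* and *PSMA7* fell in Cas9 control and *PSMA5* and *PSMA6* in *HK3*-null, whereas *PSMA1*, *PSMA2*, *PSMA3* and *PSMA4* passed in neither. With the replicate block *PSMA1* passed in Cas9 control (adjusted p = 0.00252), and *PSMA3*, *PSMA4* and *PSMA7* did in *HK3*-null (adjusted p = 0.00725, 0.0418 and 0.0193). *PSMA6* had 8848, 9389 and 8553 against 7114, 6797 and 6039 in Cas9 control and 8258, 8677 and 8179 against 6378, 6481 and 5231 in *HK3*-null, and fell by 0.43 ± 0.09 and by 0.48 ± 0.09 on the log2 scale (adjusted p = 0.00199 and 0.000671). Of the 4 structural beta genes, *PSMB1*, *PSMB2* and *PSMB3* fell in Cas9 control by 0.20 to 0.28 and *PSMB4* did not pass, and none of the 4 passed in *HK3*-null. With the block *PSMB4* passed in Cas9 control (adjusted p = 0.0235), and *PSMB1* and *PSMB2* in *HK3*-null (adjusted p = 0.029 and 0.0391). The call of *PSMB1* in Cas9 control was weak, with adjusted p = 0.0452. It was lost in 8 of the 12 fits that left out a single library, at adjusted p up to 0.157.

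In the 19S cap, 15 of 17 genes fell in Cas9 control and none rose, where 21.3% of all tested genes fell and 20.3% rose. The ATPases that unfold the substrate are *PSMC1* to *PSMC6*, of which 5 fell, all but *PSMC2*. The non-ATPase genes include the ubiquitin receptors *PSMD2* and *PSMD4*, the deubiquitinase *PSMD14*, and *PSMD1*, *PSMD3*, *PSMD6*, *PSMD7*, *PSMD8*, *PSMD11*, *PSMD12* and *PSMD13*. All of these but *PSMD4* fell. *PSMD3*, a scaffold subunit, had 9141, 8343 and 8511 in Cas9 control DMSO and 6449, 6048 and 5807 in Cas9 control ATRA, and fell by 0.51 ± 0.07 (adjusted p = 0.000112). In *HK3*-null, 6 of the 17 fell, *PSMC4*, *PSMC6*, *PSMD3*, *PSMD8*, *PSMD11* and *PSMD14*, and *PSMC2* and *PSMD4* rose. Of all tested genes 25.1% fell and 24.0% rose in *HK3*-null. With the replicate block 13 of the 17 fell there, where 30.7% of all tested genes did. Among the 13 were *PSMC1*, *PSMC3*, *PSMD2*, *PSMD6*, *PSMD7*, *PSMD12* and *PSMD13* (adjusted p from 0.00113 to 0.0319). The count in Cas9 control stayed at 15 with the block. After quantile normalization *PSMC5* and *PSMD1* did not pass in Cas9 control (adjusted p = 0.187 and 0.071 in limma). *PSMD4* then rose there by 0.18 (adjusted p = 0.00484). Of the 19S assembly chaperones, *PSMD9* fell by 0.34 in Cas9 control and did not pass in *HK3*-null, and *PSMD10* passed in neither.

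The chaperones that assemble the 20S core fell the most. *PSMG1*, which with *PSMG2* encodes the dimer on which the alpha ring forms, had 4624, 4717 and 4098 in Cas9 control DMSO and 2778, 2504 and 2193 in Cas9 control ATRA, and 3794, 3491 and 3442 against 1922, 1883 and 1625 in *HK3*-null. It fell by 0.85 ± 0.10 (adjusted p = 3.45e-05) and by 0.98 ± 0.10 (adjusted p = 6.36e-06), and it was the only gene past a fold of 1.5 downward in Cas9 control. *PSMG3* and *PSMG4* encode the second such dimer. *PSMG3* had 2694, 2475 and 2588 against 1873, 1791 and 1810 in Cas9 control and 1942, 1923 and 2062 against 1473, 1461 and 1425 in *HK3*-null, and fell by 0.50 and by 0.44. *PSMG4* had 1408, 1405 and 1353 against 1125, 1003 and 789 in Cas9 control, and 1576, 1536 and 1215 against 809, 714 and 510 in *HK3*-null. It fell by 0.53 ± 0.17 (adjusted p = 0.0291) and by 1.11 ± 0.17 (adjusted p = 0.000262), and it had the widest spread between replicates under ATRA, a coefficient of variation of 17.5% in Cas9 control and 22.5% in *HK3*-null. The call in Cas9 control was lost in 5 of 12 fits without 1 library, at adjusted p up to 0.113. *PSMG2* passed in *HK3*-null alone, where it fell by 0.27.

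**Figure D3:**
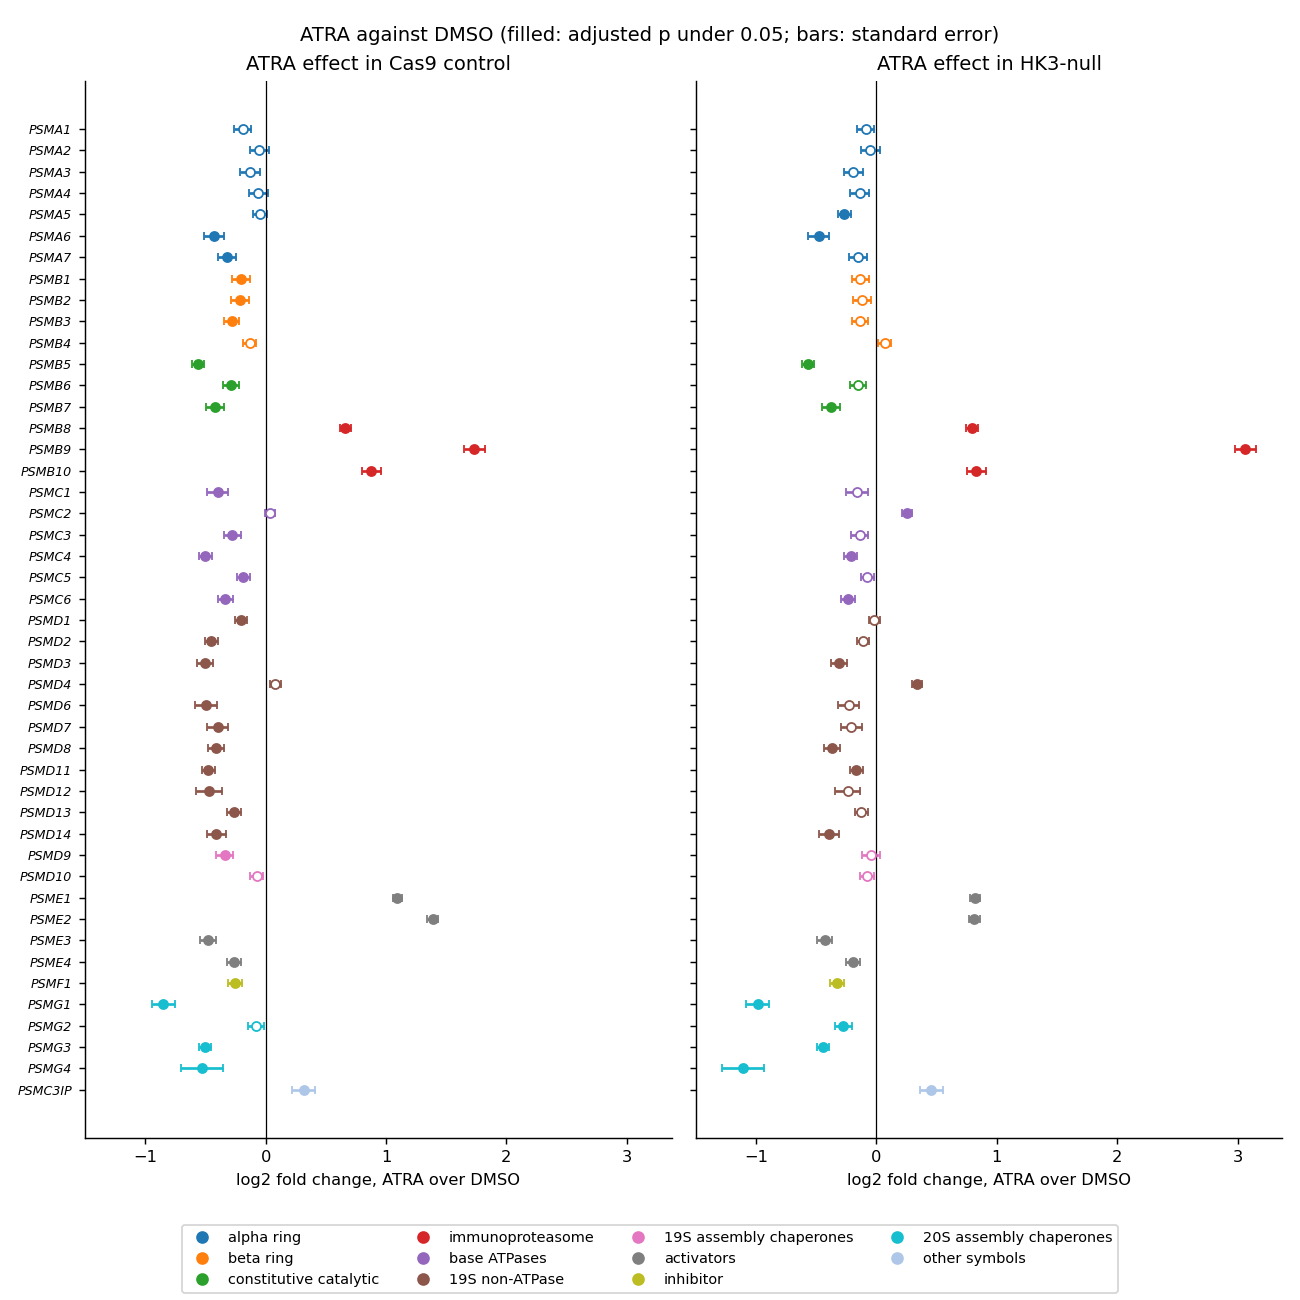
Log2 fold change of ATRA over DMSO (x axis) for the 46 genes, ordered by role (y axis), in Cas9 control (left) and *HK3*-null (right). Bars are the standard error from the limma fit, whose variance is shared over all 12 libraries, and filled points have an adjusted p below 0.05. *PSMB8*, *PSMB9*, *PSMB10*, *PSME1* and *PSME2* stand to the right in both panels, and *PSMG1* and *PSMG4* are farthest to the left in *HK3*-null.

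Whether the response to ATRA differed between genotypes was tested as an interaction of genotype and treatment. It was called for 8 of the 46 genes, with 6 more positive and 2 more negative in *HK3*-null, where 4.48% and 4.64% of all genes were called in these directions. After quantile normalization, 2 of the 46 were more positive and 4 more negative, and of all genes called the share more positive was 38.7% in place of 49.1%. With the replicate block, 12 of the 46 were more positive and 5 more negative, where 10.3% and 11.5% of all genes were. The 9 gained were *PSMB4*, *PSMD1*, *PSMD3*, *PSMD6*, *PSMD9* and *PSMD12*, more positive, and *PSMA5*, *PSMG2* and *PSMG4*, more negative (adjusted p from 0.0108 to 0.048). *PSMB9* gained 1.33 ± 0.12 more on the log2 scale in *HK3*-null (adjusted p = 7.47e-05). *PSME2* gained less there, with a difference of −0.57 ± 0.07 (adjusted p = 0.000296), and so did *PSME1*, with −0.28 ± 0.06 (adjusted p = 0.0115). These 3 calls held in every fit that left out 1 library. For *PSMB8* and *PSMB10* the differences were 0.13 ± 0.07 and −0.05 ± 0.11, which did not pass (adjusted p = 0.311 and 0.868).

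The other 5 interaction calls were genes of the 19S cap, all more positive in *HK3*-null. *PSMD2* had 8600, 8493 and 8237 in Cas9 control DMSO and 6287, 6151 and 6110 in Cas9 control ATRA, and 6854, 7007 and 6401 against 6314, 6566 and 5876 in *HK3*-null. The difference was 0.34 ± 0.07 (adjusted p = 0.0137). *PSMD4* had 4439, 4221 and 4437 against 4610, 4570 and 4667 in Cas9 control, and 4709, 4607 and 4475 against 6058, 5770 and 5602 in *HK3*-null. Its ATRA libraries lay above the DMSO libraries in both, by a wider gap in *HK3*-null. It rose by 0.34 ± 0.04 in *HK3*-null (adjusted p = 6.88e-05), and the interaction was 0.26 ± 0.06 (adjusted p = 0.0251). *PSMD11*, a lid subunit, had 4640, 4644 and 4731 against 3355, 3404 and 3331 in Cas9 control and 3489, 3800 and 3651 against 3165, 3503 and 3083 in *HK3*-null, with an interaction of 0.31 ± 0.08 (adjusted p = 0.0274). Among the ATPases, *PSMC4* had 4069, 3938 and 4051 against 3003, 2825 and 2698 in Cas9 control and 2854, 2812 and 2728 against 2434, 2515 and 2294 in *HK3*-null (0.29 ± 0.07, adjusted p = 0.0336). *PSMC2* had 4059, 4096 and 3920 against 4132, 4016 and 4216 in Cas9 control and 3537, 3592 and 3578 against 4158, 4444 and 4195 in *HK3*-null (0.22 ± 0.06, adjusted p = 0.0416). Of these 5, only *PSMD2* held in all 12 fits without 1 library and after quantile normalization. *PSMD4* was lost in 7 of the 12 fits, *PSMD11* and *PSMC2* in 8 and *PSMC4* in 10, at adjusted p up to 0.1.

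**Figure D4:**
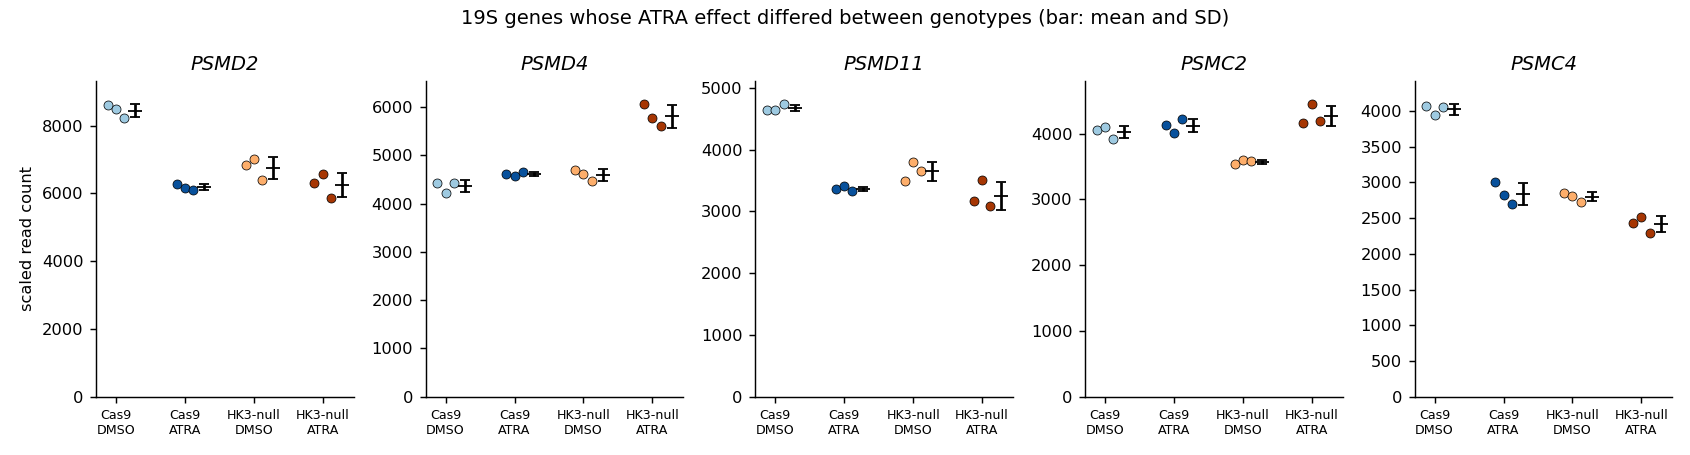
Scaled read counts (y axis, from 0) of the 5 genes of the 19S cap with an interaction call, in the 4 groups (x axis). Points are libraries and the black bar is the mean with the SD of 3 libraries. *PSMD4* reaches 5602 to 6058 in *HK3*-null ATRA and stays between 4221 and 4709 elsewhere.

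The genotypes were then compared within each treatment. More proteasome genes were lower than higher in *HK3*-null under either treatment, and *PSMB9* had the largest difference of the 46. In DMSO, 29 of 46 genes were lower and 2 higher, against 27.1% lower and 27.9% higher of all tested genes. In ATRA, 22 were lower and 3 higher, against 29.5% and 29.6%. Without the immunoproteasome genes, 26 of 43 were lower in DMSO, with a median log2 difference of −0.23, and 19 in ATRA, with a median of −0.12. The 2 comparisons have no library in common, but both use the same 2 labels of cells and a variance shared over all 12 libraries. They are thus not independent of each other. In both comparisons 21 genes were lower, where 21.9% of all tested genes were. With the chromosome's median subtracted, 31 genes were lower and 0 higher in DMSO, and 23 lower and 1 higher in ATRA. Of the 12949 genes in that fit, 6440 were called in DMSO, 50.9% of these higher, and 7207 in ATRA, 49.1% of these higher. Among the 41 genes outside the 5 shifted chromosomes, 26 were lower and 1 higher in DMSO, and 18 lower and 2 higher in ATRA. The shares of all tested genes outside these chromosomes were not computed, so these counts have no matching background. Again few differences were large. With a fold of at least 1.5 also required, 3 genes were called in DMSO and 6 in ATRA, all lower, where 32.1% and 36.5% of all genes passed.

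The immunoproteasome genes were lower in *HK3*-null under both treatments. *PSMB9*, with 48 to 55 scaled counts against 484 to 542 in DMSO, differed by −3.35 ± 0.09 on the log2 scale (adjusted p = 2.38e-10), a level 10.2-fold lower. In ATRA, with 388 to 446 against 1675 to 1716, it differed by −2.02 ± 0.09 (adjusted p = 1.01e-08), 4.04-fold lower. *PSMB8* differed by −0.81 ± 0.05 in DMSO (adjusted p = 1.19e-07) and by −0.68 ± 0.05 in ATRA (adjusted p = 4.27e-07). Both lie on chromosome 6, whose genes were higher on the whole. With the chromosome's median subtracted, *PSMB9* differed by −3.87 and −2.58 and *PSMB8* by −1.33 and −1.25. *PSMB10*, on chromosome 16, differed by −0.36 ± 0.08 (adjusted p = 0.00296) and −0.40 ± 0.08 (adjusted p = 0.00113).

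*TAP1*, which encodes a subunit of the peptide transporter that feeds class I molecules, starts 488 bases from *PSMB9* on the opposite strand. It had scaled counts of 1016 to 1167 in Cas9 control DMSO and 735 to 846 in *HK3*-null DMSO, a log2 difference of −0.45 ± 0.12 (adjusted p = 0.00873), and of −0.40 ± 0.12 in ATRA (adjusted p = 0.0145). The neighbor was thus lower as well, with a smaller difference than *PSMB9*, and the gap between the 2 genes was not tested. *PSMB8-AS1* had 260 to 312 in Cas9 control DMSO and 275 to 313 in *HK3*-null DMSO, groups that overlap.

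Of the PA28 genes, *PSME2* differed by −0.37 ± 0.05 in DMSO (adjusted p = 4.12e-05) and by −0.94 ± 0.05 in ATRA (adjusted p = 2.27e-08). *PSME1* differed by −0.38 ± 0.04 (adjusted p = 1.26e-05) and −0.65 ± 0.04 (adjusted p = 1.3e-07). *PSME3* and *PSMF1* were lower under both treatments too. *PSME4* was higher in ATRA by 0.16 ± 0.06 (adjusted p = 0.0298), and in DMSO with the block only (adjusted p = 0.0409). The call in ATRA was lost after quantile normalization (adjusted p = 0.0908), with the chromosome's median subtracted and in 4 of the 12 fits without 1 library. These were the fits without Cas9 control ATRA replicate 1 or 3 or *HK3*-null ATRA replicate 1 or 2, at adjusted p up to 0.102.

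*PSMA4*, an alpha ring gene, had 8332, 9015 and 7664 in Cas9 control DMSO and 3799, 3826 and 3671 in *HK3*-null DMSO, and 8792, 7819 and 7391 against 3418, 3652 and 3200 in ATRA. It differed by −1.14 ± 0.08 (adjusted p = 2.92e-07) and −1.22 ± 0.08 (adjusted p = 1.46e-07), but lies on chromosome 15. With the chromosome's median subtracted, −0.20 and −0.25 remained (adjusted p = 0.0478 and 0.0156). *PSMB1*, with 9337, 8804 and 8251 against 10609, 10824 and 10583 in DMSO, and 8271, 7539 and 7148 against 10337, 10141 and 8816 in ATRA, was the member with the largest increase in *HK3*-null. It differed by 0.28 ± 0.07 (adjusted p = 0.00686) and 0.35 ± 0.07 (adjusted p = 0.00151). On chromosome 6, however, the direction turned with the chromosome's median subtracted, to −0.24 and −0.22. *PSMG4*, on the same chromosome, differed by 0.05 in DMSO without passing and by −0.53 ± 0.17 in ATRA (adjusted p = 0.02), and by −0.48 and −1.10 with the median subtracted. The ATRA call was lost in 3 of the 12 fits without 1 library, Cas9 control ATRA replicate 1 or 2 or *HK3*-null ATRA replicate 3, at adjusted p up to 0.0816.

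Among the constitutive catalytic genes *PSMB5* was lower by 0.51 ± 0.05 in both treatments (adjusted p = 6.28e-06 and 5.13e-06). *PSMB6* differed by −0.32 in DMSO and −0.18 in ATRA, both past the threshold, the latter not in 3 of 12 fits without 1 library, namely Cas9 control ATRA replicate 1 or 2 or *HK3*-null ATRA replicate 3 (adjusted p up to 0.12). *PSMB7* differed by −0.16 and −0.12 and passed in neither, but in both with the replicate block (adjusted p = 0.0122 and 0.048). Of the other alpha ring genes *PSMA2*, *PSMA3*, *PSMA5* and *PSMA7* were lower under both treatments and *PSMA1* and *PSMA6* under neither, although *PSMA6* passed in ATRA, at −0.14, with the replicate block (adjusted p = 0.0326). *PSMB2* and *PSMB3* were lower under both, and *PSMB4* in DMSO.

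Of the 17 genes of the 19S cap, 9 were lower in DMSO, led by *PSMC5* and *PSMC4*, where 27.1% of all tested genes were lower. In ATRA 3 were lower and 1 higher, where 29.5% and 29.6% of all tested genes were. With the replicate block *PSMC3*, *PSMD6* and *PSMD7* were lower in DMSO too (adjusted p = 0.0106, 0.0193 and 0.00252), and *PSMC1* and *PSMD12* were higher in ATRA (adjusted p = 0.0346 and 0.0123). *PSMC5*, an ATPase, had 6966, 6623 and 6632 against 4626, 4675 and 4570 in DMSO and 6084, 6072 and 5638 against 4431, 4643 and 4123 in ATRA, differences of −0.54 ± 0.05 (adjusted p = 5e-06) and −0.43 ± 0.05 (adjusted p = 2.62e-05). *PSMC4* differed by −0.52 ± 0.05 (adjusted p = 7.12e-06) and −0.23 ± 0.05 (adjusted p = 0.00245). The gene higher in ATRA was *PSMD4*, by 0.33 ± 0.04 (adjusted p = 5.51e-05). *PSMD9* was lower in DMSO by 0.45, and in ATRA only with the block (adjusted p = 0.0196). The 20S chaperone genes *PSMG1* and *PSMG3* were lower under both treatments. *PSMG2* had 3468, 3483 and 3047 against 4033, 3861 and 3737 in DMSO and was higher by 0.22 ± 0.07 (adjusted p = 0.0168), a call lost with the chromosome's median subtracted (adjusted p = 0.0693) and without Cas9 control DMSO replicate 3 or *HK3*-null DMSO replicate 1 (adjusted p up to 0.0701).

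**Figure D5:**
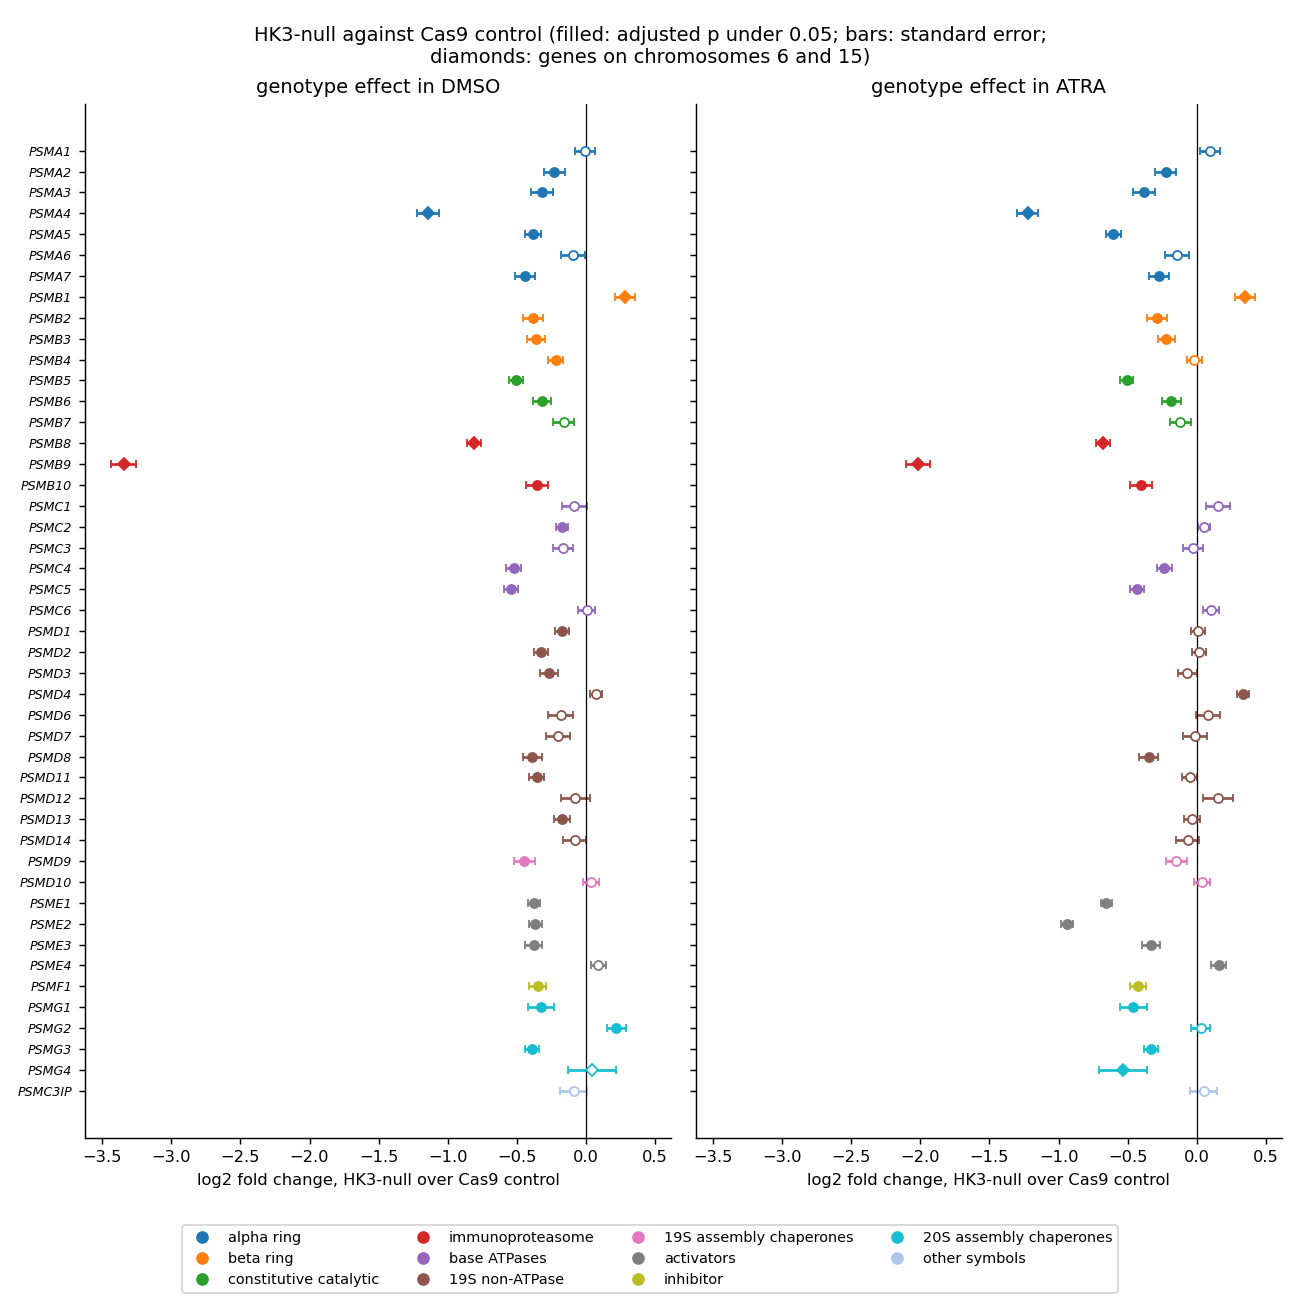
Log2 fold change of *HK3*-null over Cas9 control (x axis) for the 46 genes, ordered by role (y axis), in DMSO (left) and ATRA (right). Bars are the standard error from the limma fit, whose variance is shared over all 12 libraries. Filled points have an adjusted p below 0.05, and diamonds are the genes on chromosomes 6 and 15. *PSMB9* stands at −3.35 and −2.02, far to the left of the rest.

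The genes that work with the proteasome were read from a list of 24 partners, comprising assembly factors, ubiquitin receptors and shuttles, and regulators of its transcription. ATRA raised 1 and lowered 14 of them in Cas9 control, and raised 5 and lowered 12 in *HK3*-null, with medians of −0.30 and −0.16. Of all genes 20.3% rose and 21.3% fell in Cas9 control, and 24.0% and 25.1% in *HK3*-null. *POMP*, the maturation factor of the 20S core, was lower in *HK3*-null by 0.99 ± 0.08 in DMSO (adjusted p = 8.69e-07) and by 0.71 ± 0.08 in ATRA (adjusted p = 1.01e-05), but it lies on chromosome 13, one of the shifted ones. *NFE2L1*, which encodes the transcription factor that induces proteasome genes when the protease is inhibited, did not pass for ATRA and was higher in *HK3*-null by 0.29 in DMSO and 0.40 in ATRA. Over the 24 genes, 7 were higher and 9 lower in DMSO, and 8 higher and 6 lower in ATRA, against 27.1 to 29.6% of all genes called in each direction.

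Of 11 antigen processing genes, which act downstream of the immunoproteasome or induce it, ATRA raised 6 in Cas9 control and 8 in *HK3*-null and lowered 2 and 1, against the same shares of all genes. The most abundant of those lowered, *CALR*, a chaperone of class I assembly, fell by 1.32 and by 1.44 on the log2 scale. *IRF1*, a transcription factor known to induce immunoproteasome genes, had scaled counts of 759 to 881 in Cas9 control DMSO and 4294 to 5082 in Cas9 control ATRA, and 337 to 406 against 2667 to 3348 in *HK3*-null. It rose by 2.53 ± 0.10 and 3.00 ± 0.10 (adjusted p = 7.65e-09 and 1.89e-09). It was lower in *HK3*-null by 1.14 in DMSO and by 0.67 in ATRA, and lies on chromosome 5, where genes were lower as a whole. *B2M*, the light chain of class I, rose by 0.49 and 0.58. Between genotypes, 8 of the 11 were lower in DMSO and 7 in ATRA, and 1 and 2 higher, where 27.1% and 29.5% of all genes were lower. Of the 11, *IRF1* and others lie on chromosome 5, and *B2M* and another on chromosome 15. The median log2 difference of these chromosomes in DMSO was −0.75 and −0.94. *TAP1* and others lie on chromosome 6, where genes were higher as a whole. The part of these chromosomes in the counts was not tested.

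The ATACseq files hold 8286 regions that were chosen for a difference between *HK3*-null and Cas9 control under ATRA, so their values are given without a test. Of the 46 genes, 4 are listed with a region, and none of the immunoproteasome genes is. The share of all genes listed with a region was not computed, so these counts cannot be called few or many. The region of *PSMA4* (chr15:78540099-78540897, hg38) contains its start site. Its signal, the density of fragments after all libraries were reduced to the same number of tags, was 88.1 and 90.8 in Cas9 control DMSO, 94.7 and 82.1 in Cas9 control ATRA, 52.8 and 43.6 in *HK3*-null DMSO and 30.0 and 45.2 in *HK3*-null ATRA. It was thus lower in all *HK3*-null libraries, on the chromosome whose transcripts were lower as a whole. The region of *PSMA6* (chr14:35294259-35294514) lies in an intron. Its signal was 32.6 and 25.1 in Cas9 control DMSO, 74.4 and 50.2 in Cas9 control ATRA, 12.9 and 13.5 in *HK3*-null DMSO and 16.4 and 26.5 in *HK3*-null ATRA, while the transcript of *PSMA6* passed between genotypes in ATRA only with the replicate block or after quantile normalization, where it differed by −0.23 (adjusted p = 0.0096).

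Of these 4 regions, the one with the largest contrast has its midpoint 5551 bases before the start of *PSME1* (chr14:24130373-24130913). It lies outside the gene and is also listed with 3 other genes. Its signal was 4.19 and 5.06 in Cas9 control DMSO, 2.38 and 3.91 in Cas9 control ATRA, 78.1 and 63.7 in *HK3*-null DMSO and 88.9 and 73.3 in *HK3*-null ATRA. The signal was high in the *HK3*-null libraries, in which *PSME1* mRNA was lower. The region listed with *PSMA1* (chr11:14612778-14613025) lies in an intron of a longer transcript, with its midpoint 92515 bases before the start of the canonical one. Its signal was 1.0 to 8.25 in the Cas9 control libraries and 6.0 to 23.2 in the *HK3*-null libraries.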

How the data were processed

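RNAseq was measured in 12 libraries and ATACseq in 8. The authors mapped paired-end reads to GRCh38 and deposited, per gene, the log2 of a scaled, rounded count, with 0 written as the log2 of 0.001. The methods state RPKM, but the values are scaled whole numbers. No source used here gives the aligner or counter of RNAseq, and the submitters' processing notes name DESeq2 and MACS2. The deposited ATACseq signal is fragment density in merged regions. The 330 rows without a gene name, at most 0.00926% of counts, were dropped.

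Genes with a group mean log2 above 3 were fitted in limma 3.58.1 (R 4.3.3) on the deposited log2 values, with 1 mean per group, a mean-variance trend and Benjamini-Hochberg adjustment. The methods call the replicates biological without saying what separated them, so p-values measure the spread between these libraries, which may be technical. Deviations from the group means correlated at 0.16 to 0.618 for all 18 same-numbered library pairs and at −0.634 to 0.283 for 36 others (10667 genes), so the numbers pair the libraries and a fit with the replicate number as a block is given beside the results. The fit was tested on simulated data. Members and lists were chosen with earlier results of these data known. Every member was named, and values are given for the catalytic subunits, the 5 called genes with the largest rise and fall per comparison, the extremes of level and genes within 20 scaled counts of the minimum. GENCODE 44 holds 44 pseudogenes named after 17 of the genes, and reads shared with these could be split. SEM1 is deposited as SHFM1. One gene of the antigen processing list is not reported here by name.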

Additional observations from a re-analysis of the deposited data

Results flagged for a closer look

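The response to ATRA differed between genotypes, by the interaction term of limma, for 8 proteasome genes. The log2 difference, *HK3*-null minus Cas9 control, was 1.33 for *PSMB9*, 0.34 for *PSMD2*, 0.31 for *PSMD11*, 0.29 for *PSMC4*, 0.26 for *PSMD4* and 0.22 for *PSMC2*. It was −0.57 for *PSME2* and −0.28 for *PSME1*. *PSMB9* started 10.2-fold lower in *HK3*-null DMSO, so its larger gain left it 4.04-fold below Cas9 control under ATRA. *PSMD2*, *PSMD11*, *PSMC4* and *PSMC2* were lower in *HK3*-null in DMSO. In ATRA *PSMC4* alone of these passed, lower, and *PSMD4* was higher. *PSME1* and *PSME2* were lower by a larger difference in ATRA than in DMSO.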

How the results depend on the processing

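Adding 1 to the scaled counts, omitting the filter on low values or omitting the trend left the count of called genes in all 5 comparisons within 1.5 times. So did fitting only the groups compared, which was run for the 2 ATRA effects alone. With a fold of at least 1.5 required, at an adjusted or an unadjusted p below 0.05, the called genes numbered 6 for ATRA in Cas9 control (5 higher, 1 lower), 7 for ATRA in *HK3*-null (5 higher, 2 lower), 3 between genotypes in DMSO (0 higher, 3 lower), 6 in ATRA (0 higher, 6 lower) and 1 for the interaction (1 more positive, 0 more negative).

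With the replicate number as a block, 38 genes were called for ATRA in *HK3*-null, 30 of them lower, 5 were higher between genotypes in ATRA, and 17 had an interaction, 12 more positive and 5 more negative. Of the 24 genes with values, none lost a call with the block. Quantile normalization gave 2 more positive and 4 more negative interactions, and 26 genes lower under ATRA in Cas9 control and 25 in *HK3*-null. With the chromosome's median subtracted, 0 genes were higher between genotypes in DMSO and 1 in ATRA. *PSMB1* turned to −0.24 in DMSO and −0.22 in ATRA, and *PSMG4* to −0.48 in DMSO. This follows from the higher median of chromosome 6.

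Leaving out 1 library gave 4 to 9 interactions (2 to 7 more positive), with 4 or 5 without any DMSO library or Cas9 control ATRA replicate 1 or 2. It gave 1 to 2 genes higher between genotypes in DMSO, with 1 without Cas9 control DMSO replicate 3 or *HK3*-null DMSO replicate 1, and 2 to 5 in ATRA, with 5 without *HK3*-null ATRA replicate 3. For ATRA it gave 31 to 38 genes in Cas9 control and 23 to 29 in *HK3*-null. Of 81 called results of the 24 genes with values, 66 passed in all 12 such fits. The 12 differences of ratios kept their direction when 1 was added. With 3 libraries a group, the smallest called log2 difference was 0.16, for *PSME4* between genotypes in ATRA.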
